A study of Mus musculus with 10 samples.

Results

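Poly(ADP-ribose) polymerases (PARPs) and their ubiquitin ligase partner Dtx3l were examined in the lungs of 2-week-old mice. The members were 10 named genes, Parp1, Parp2, Parp3, Parp4, Parp8, Parp9, Parp10, Parp12, Parp14 and Dtx3l, and every probe set that the platform annotation gives to 1 of them alone was taken, 17 of 45101 on the array. The members were chosen on their smoke against control differences in these same arrays, to hold genes that were far lower after smoke beside relatives that were not. The smoke differences of the members are therefore given as a description, with no p-value. Where members are counted by the threshold used over the whole array, the choice had fixed the outcome and the count supports nothing. Of the 17 probe sets 15, for 9 genes, were among the brighter 60% that were tested across the whole array. The other 2, 1443573_at of Parp1 and 1441026_at of Parp4, were too dim. Parp10 has no probe set of its own here: its 1 probe set is annotated to a second gene as well, so Parp10 is named without a value.

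Total RNA from the lung of 10 C57BL/6J mice aged 2 weeks was hybridised to Affymetrix mouse expression arrays, 1 mouse to an array. The 4 control mice stayed in filtered air, apart from the exposed mice. The 6 smoke mice entered a cigarette smoke chamber with their mother from 1 day of age, at 1 hour daily for 7 days and 2 hours daily for the next 7 days, with particulate matter averaging 90 mg per cubic metre. All were of 1 inbred strain with no transgene, the labels leave sex unknown, and they name no litter or hybridisation batch, so errors here measure the spread between these arrays.

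PARPs use NAD to attach ADP-ribose to proteins and nucleic acids. Parp1, Parp2 and Parp3 are nuclear enzymes that respond to DNA breaks, and Parp4 is a component of vault particles. Parp9, Parp10, Parp12 and Parp14 are known as targets of interferon signalling, and Parp9 pairs with Dtx3l, an E3 ubiquitin ligase, in a complex that acts in DNA damage repair and in antiviral defence. Parp9 and Dtx3l are known to be transcribed in opposite directions from 1 shared promoter region, and Parp14 is their neighbour.

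RefSeq promoter sequences (build GRCm38.p6, 250 bases before to 50 after the start of transcription) were at hand for 7 of the 10 genes, all but Parp9, Parp10 and Parp14. Both strands were searched for the core of the interferon-stimulated response element, GAAANNGAAA, which 3.44% of 32851 mouse promoters of the same length hold, and for the gamma-activated site TTCNNNGAA, which 8.30% hold. Parp4 was the 1 gene of 7 with a match to the first, as a pair of overlapping cores, and 0 of 7 matched the second. The windows of Parp4, Dtx3l and Parp12 are shown because Parp4 carries the match, while Dtx3l and Parp12 were several-fold lower after smoke and have no match in theirs. The mean of Parp4 after smoke was not lower in its tested probe set, but was lower in its dim, untested probe set. Capitals mark the overlapping cores. Parp4 lies at chr14:56575369-56575668 on the plus strand, Dtx3l at chr16:35938978-35939277 on the minus strand and Parp12 at chr6:39118300-39118599 on the minus strand.
Parp4: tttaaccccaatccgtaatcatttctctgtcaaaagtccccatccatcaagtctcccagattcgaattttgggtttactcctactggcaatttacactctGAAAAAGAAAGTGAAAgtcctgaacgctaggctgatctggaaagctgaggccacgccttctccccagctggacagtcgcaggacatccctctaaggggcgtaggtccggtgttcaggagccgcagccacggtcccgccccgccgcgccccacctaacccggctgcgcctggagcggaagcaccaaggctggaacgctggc
Dtx3l: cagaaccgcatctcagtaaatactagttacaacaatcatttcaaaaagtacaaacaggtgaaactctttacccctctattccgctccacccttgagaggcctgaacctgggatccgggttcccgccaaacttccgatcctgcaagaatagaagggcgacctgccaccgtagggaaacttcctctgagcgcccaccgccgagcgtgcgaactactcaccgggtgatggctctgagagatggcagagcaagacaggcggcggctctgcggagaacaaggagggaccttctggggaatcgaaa
Parp12: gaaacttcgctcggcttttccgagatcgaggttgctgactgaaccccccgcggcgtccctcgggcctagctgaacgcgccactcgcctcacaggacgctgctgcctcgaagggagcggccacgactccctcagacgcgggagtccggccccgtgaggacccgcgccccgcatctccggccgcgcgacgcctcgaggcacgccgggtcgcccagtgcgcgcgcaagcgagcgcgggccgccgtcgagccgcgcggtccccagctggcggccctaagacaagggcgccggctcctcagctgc

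Counted from the start site, the cores in Parp4 begin at positions -150 and -144, as GAAAAAGAAA and GAAAGTGAAA on the strand of the gene. The longer core GAAANNGAAACT was in none of the 7 windows and in 0.271% of all promoters. The windows also differed in CpG pairs, with 46 in Parp12, 37 in Parp8, 25 in Parp2, 20 in Parp1, 17 in Parp4, 17 in Dtx3l and 16 in Parp3, where the median over all promoters was 7. A match is a run of letters and no proof of binding, and its absence says only that these letters are not in the window.

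Before the members are described, 4 arrays need mention. The ratio of the 3' to the 5' actin probe set, which rises when RNA is shortened, was 3.96 to 10.4 in controls. It was 31.6 and 29.4 in smoke arrays 1 and 2, and 2.18 and 2.98 in smoke arrays 5 and 6. The same ratio for Gapdh was 4.82 to 5.89 in controls, and 1.40 and 2.14 in smoke arrays 5 and 6. It was high in smoke array 2, at 9.16, but not in smoke array 1, at 4.76, so the 2 ratios differ on array 1. Smoke arrays 5 and 6 were also the 2 smoke arrays high in Xist, a transcript of the inactive X chromosome, at log2 levels of 14.09 and 14.01 against 8.80 to 9.38 in the other smoke arrays. Controls 2 and 4 were high in it as well. Lung identity was clear on every array: the 7 alveolar type 2 markers on the array, surfactant genes among them, had a summed normalized level between 59510 and 87890 in controls and between 43450 and 90750 in smoke lungs, and 0 of 7 changed.

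Parp9, the catalytically weak partner of Dtx3l, was bright in control lungs and dim in smoke lungs. The deposited intensity of its probe set 1416897_at was 4314, 4644, 3984 and 3270 in controls 1 to 4, and ran from 554 through a median of 788 to 1139 after smoke. All 6 smoke arrays lay below all 4 controls, and the dimmest control was still 3.04-fold above the brightest smoke array after normalization. The log2 level averaged 11.93 ± 0.20 (SD, n = 4) without smoke and 9.69 ± 0.28 (SD, n = 6) with it, a difference of -2.24 ± 0.19 (SE), or 4.72-fold. In whole lung, fewer cells of a type and less RNA in each cell cannot be told apart.

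Parp12, a zinc finger PARP that restricts viruses, had nearly the same difference. Its intensity was 5868, 5494, 5464 and 4427 in the controls and 785 to 1520 after smoke, with a median of 1033. The groups did not overlap, with a 3.26-fold gap between them. Its log2 level averaged 12.34 ± 0.15 (SD, n = 4) without smoke and 10.09 ± 0.32 (SD, n = 6) with it, which is 4.77-fold lower, at -2.25 ± 0.19 (SE).

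Parp14, a macrodomain PARP also known as a cofactor of STAT6, was lower in both of its probe sets. For 1451564_at the control intensities were 5825, 5960, 4476 and 3812. After smoke they ran from 681 to 1766 with a median of 780, and arrays 5 and 6, at 1766 and 1672, stood above the other 4, at 681 to 798. The log2 difference was -2.31 ± 0.28 (SE), or 4.95-fold, from 12.23 ± 0.30 (SD, n = 4) to 9.92 ± 0.56 (SD, n = 6). With the arrays numbered 1 to 4 alone, which leaves out smoke arrays 5 and 6, it was -2.71.

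The second Parp14 probe set, 1432548_at, gave 936, 667, 387 and 598 in controls and 13.3 to 186 after smoke, with a median of 54.3. Its smoke arrays again lay below every control, and again arrays 5 and 6 were the highest of the smoke group, at 166 and 186. Its log2 difference of -3.50 ± 0.71 (SE) rests partly on the floor of 15.8 under which intensities were not used, since smoke array 2 lay there.

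Dtx3l was lower too, by a smaller factor than its partner Parp9. The intensities of 1435208_at were 4584, 6726, 6349 and 4677 in controls and 1355 to 2522 after smoke, with a median of 1826. The groups were apart by 1.84-fold, and the log2 level was 12.41 ± 0.24 (SD, n = 4) against 10.81 ± 0.42 (SD, n = 6), a difference of -1.60 ± 0.23 (SE), or 3.03-fold. Within the smoke group the order of the arrays was turned about in this probe set. Arrays 5 and 6, the highest for Parp9 and Parp14, were its lowest, at 1355 and 1379. Arrays 1 and 2 were its highest, at 2124 and 2522. The other probe set, 1439825_at, gave 1160, 1465, 1004 and 969 in controls and 64.0 to 623 after smoke, a log2 difference of -1.86 ± 0.50 (SE). Its smoke array 2, at 64.0, stood far below the next, at 303, although 1435208_at was highest on that array.

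**Figure D1:**
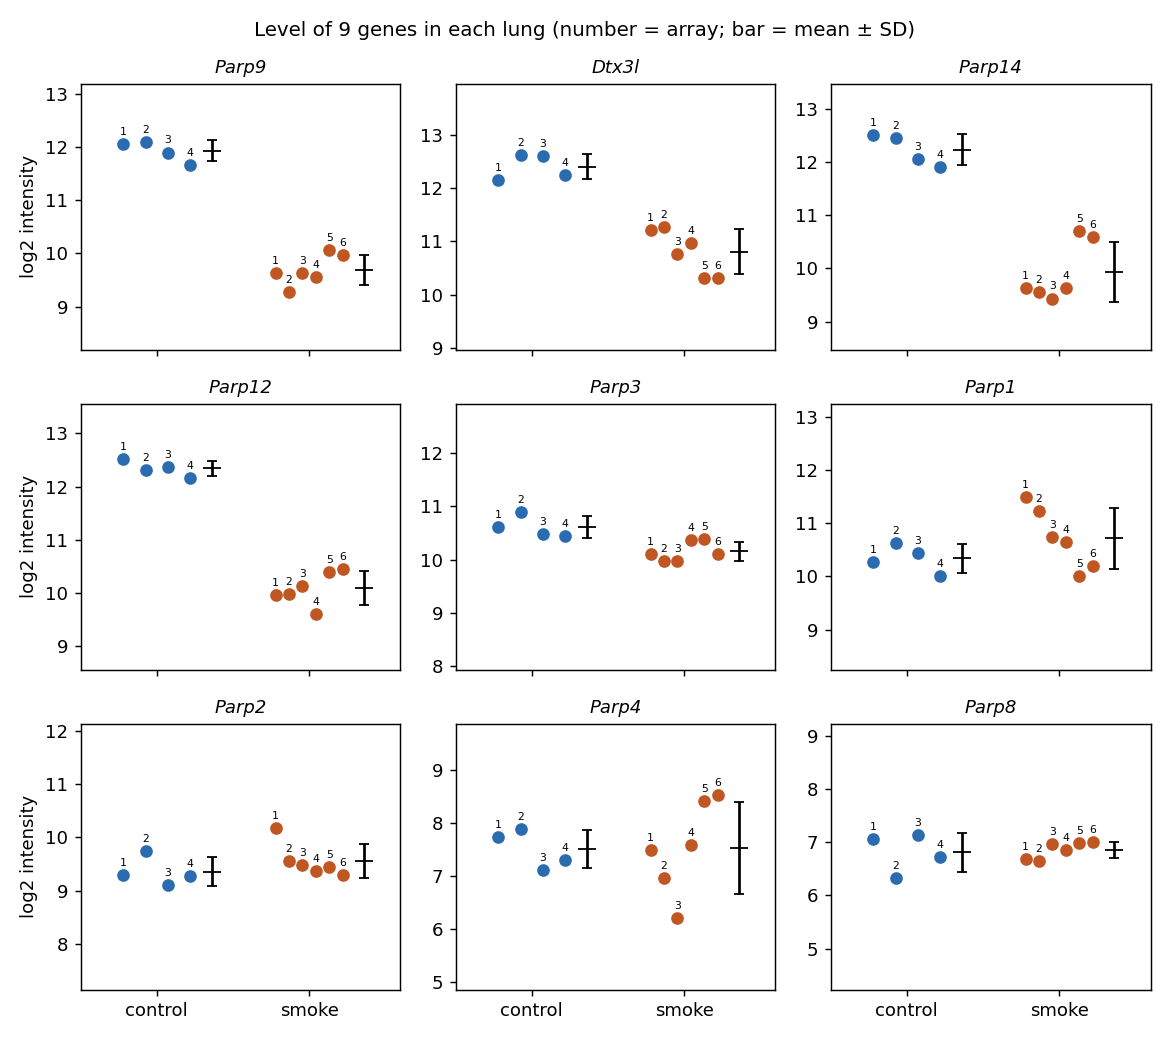
Log2 intensity (vertical axis, spanning the same number of units in each panel) of the representative probe set of 9 genes in control and smoke lungs (horizontal axis). Points are single arrays with their number, and the bar beside each group is the mean ± SD. Parp9, Dtx3l, Parp14 and Parp12 show groups far apart, Parp3 groups that barely separate, and Parp1, Parp2, Parp4 and Parp8 groups that overlap.

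Parp3, a DNA break enzyme that is not usually counted among interferon targets, lay between these genes and the rest, and its 3 probe sets gave different sizes. For 1451969_s_at, the brightest, the control intensities were 1604, 1886, 1430 and 1423, and the smoke intensities ran from 931 through a median of 1105 to 1428. After normalization all 6 smoke arrays were below all 4 controls, but by only 1.04-fold at the closest, and the log2 difference was -0.45 ± 0.17 (SE). It was -0.68 ± 0.28 (SE) for 1426210_x_at, where 4 of 6 smoke arrays lay below every control. For 1445888_x_at the intensities were 1295, 1168, 902 and 895 in controls and 287 to 566 after smoke, and the difference of -1.33 ± 0.23 (SE) had no overlap between groups. Probe sets with _x_at or _s_at names can bind related transcripts, and all 3 of Parp3 are of that kind.

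Parp1, the main poly(ADP-ribose) synthase of the nucleus, had 3 tested probe sets, with differences of either sign. The brightest, 1435368_a_at, gave 1265, 1551, 1386 and 1054 in controls and 1095 to 2598 after smoke, with a median of 1630. Its log2 difference was 0.38 ± 0.29 (SE), and it moved with the arrays used: it was 0.06 ± 0.21 without smoke arrays 1 and 2, which were its 2 highest, and 0.70 ± 0.23 with the arrays numbered 1 to 4 alone (0.70 ± 0.20 with the number as a block). The other differences were -0.24 ± 0.41 (SE) for 1422502_at and 0.11 ± 0.36 (SE) for 1422503_s_at. The smoke arrays spread much more than the controls in 1422502_at, with a log2 SD of 0.91 against 0.12, since arrays 1 and 2 were the lowest at 231 and 313 and arrays 5 and 6 the highest at 1063 and 940.

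Parp2, the close relative of Parp1 in repair, gave 639, 820, 527 and 637 in controls and 663 to 1056 after smoke, with a median of 708. The groups overlapped, and the log2 difference was 0.20 ± 0.21 (SE). Parp4 gave 198, 235, 135 and 157 in controls and 72.9 to 361 after smoke, with a median of 233 and a log2 difference of 0.02 ± 0.42 (SE). Its smoke arrays 5 and 6 lay above every control and its smoke arrays 2 and 3 below every control. Without smoke arrays 5 and 6 the difference was -0.44. These Parp4 values are of 1452351_at. The dim, untested Parp4 probe set 1441026_at was at -0.76, with 5 of 6 smoke arrays below every control. Parp8, a mono-ADP-ribosyl transferase of less known function, gave 120, 82.1, 137 and 104 in controls and 96.1 to 146 after smoke, with a median of 117 and a log2 difference of 0.05 ± 0.25 (SE).

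Taken by gene, each with its brightest tested probe set, 4 of 9 members were lower by limma at an adjusted p under 0.05 (Parp9, Parp12, Parp14 and Dtx3l), none higher, and 5 did not pass. Over all 13382 genes tested 0.702% were lower and 0.0224% higher by the same rule. In 5 of 9 every smoke array lay below every control, Parp3 being the fifth, and in 0 every smoke array lay above, where 2.11% and 1.97% of all genes did so. Since the members were picked on this contrast, nothing is read from these shares. The median log2 difference was -0.45 over the 9 members and 0.06 over all genes tested, and 90% of all genes lay between -0.66 and 0.63. Over single omissions the differences ran from -2.33 to -2.13 for Parp9, from -2.35 to -2.17 for Parp12, from -2.48 to -2.20 for Parp14 and from -1.69 to -1.51 for Dtx3l.

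**Figure D2:**
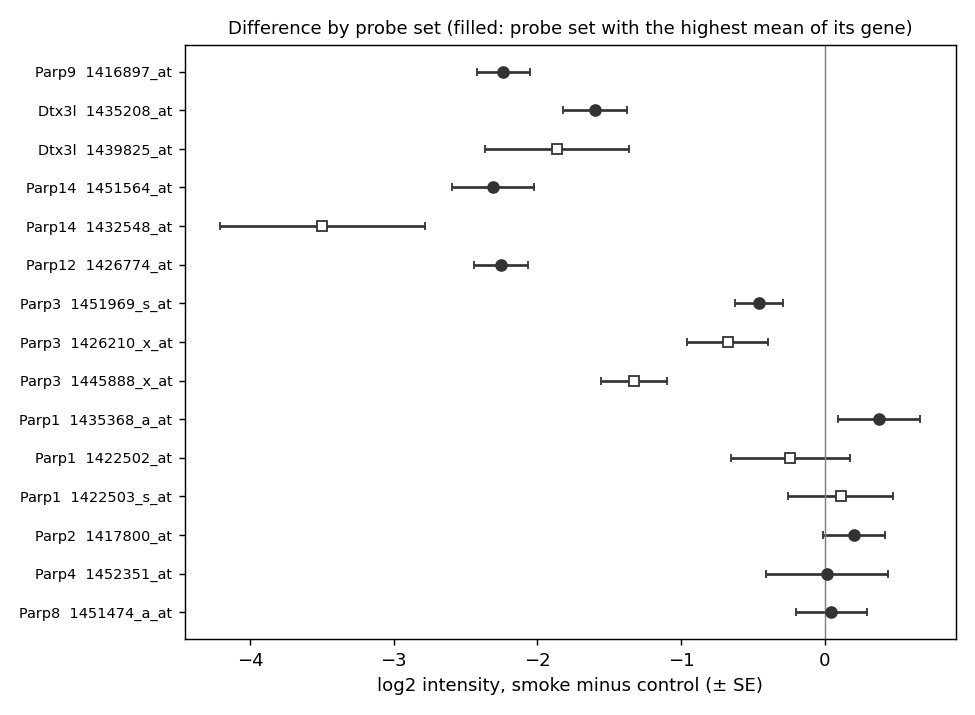
Difference in log2 intensity, smoke minus control (horizontal axis), for the 15 tested probe sets of 9 genes (vertical axis), with the SE as bars. Filled circles are the probe set with the highest mean of each gene and open squares the others. Both probe sets of Parp14 and of Dtx3l lie left of 0, the 3 of Parp3 spread from -0.45 to -1.33, and those of Parp1 fall on either side of 0.

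Probe sets of the same gene were set against each other on every array, since a ratio within an array shows unequal change of the pair. The pairs described were chosen after their values were seen. For Parp1 the log2 difference of 1435368_a_at over 1422502_at was 4.02 and 2.76 in smoke arrays 1 and 2, 1.69 and 1.92 in smoke arrays 3 and 4, and 0.05 and 0.42 in smoke arrays 5 and 6. In controls 1 to 4 it was 1.08, 1.53, 1.43 and 0.72. The 3 arrays with the lowest actin ratios had the lowest differences, and the 2 with the highest ratios had the highest. Over the other dimmer Parp1 probe set, 1422503_s_at, the difference was 3.43 and 1.77 in smoke arrays 1 and 2 and -0.06 and 0.19 in smoke arrays 5 and 6. For Parp3 the difference of 1426210_x_at over 1445888_x_at was 2.14 and 1.85 in smoke arrays 1 and 2 and 0.12 to 0.70 in all other arrays. For Dtx3l the difference of 1435208_at over 1439825_at was 5.18 in smoke array 2 and 1.89 to 2.61 in the other 9. The part of RNA length in these ratios was not tested. When the actin ratio entered the model, on the log2 scale, the difference between groups was -2.21 for Parp9, -2.23 for Parp12, -2.25 for Parp14, -1.66 for Dtx3l and 0.30 ± 0.12 (SE) for Parp1.

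**Figure D3:**
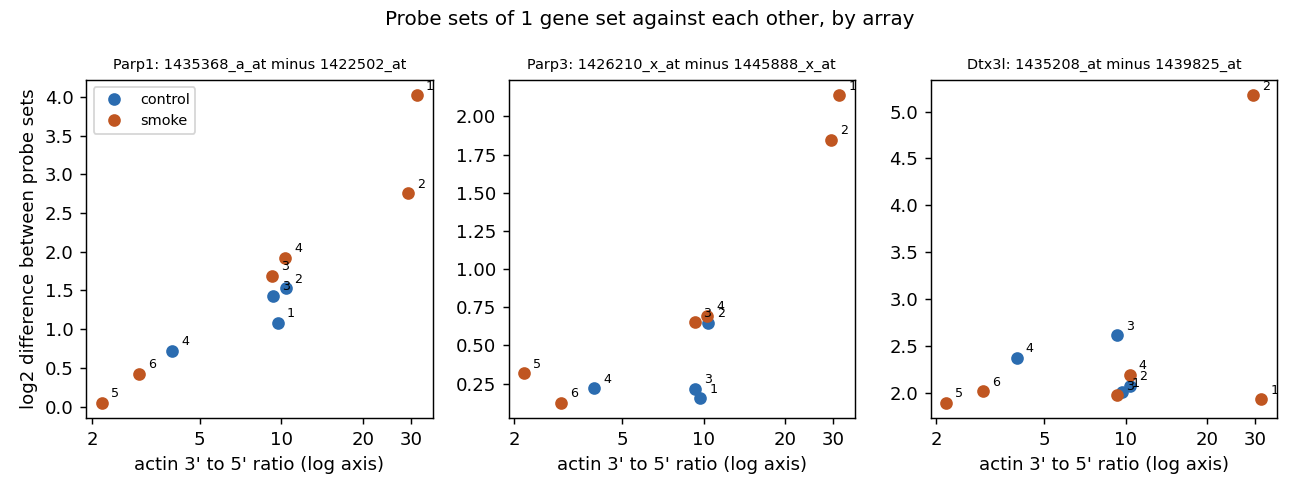
Log2 difference between a pair of probe sets of the same gene (vertical axis) against the actin 3' to 5' ratio (horizontal log axis) for the 10 arrays, numbered and coloured by group. For Parp1 the difference rises from 0.05 in smoke array 5 to 4.02 in smoke array 1, for Parp3 smoke arrays 1 and 2 stand apart, and for Dtx3l only smoke array 2 does.

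Whether members vary together was examined within the 6 smoke arrays, which does not use the contrast on which they were picked. Each gene was taken by its brightest tested probe set, which for Dtx3l is 1435208_at. Against Parp9, Pearson's r was 0.88 for Parp14 (rho = 0.83) and -0.91 for Dtx3l (rho = -0.83), with exact two-sided permutation p-values of 0.0236 and 0.0153 for r and 0.0583 for both rho. Over the 8 relations computed the Benjamini-Hochberg adjusted values of this exact permutation test were 0.0944 for both r and 0.233 for both rho, so none of the 8 passed. Without smoke arrays 2 and 5, the farthest from the median of Parp9, r was 0.96 for Parp14 and -0.83 for Dtx3l. Over all 10 arrays, each centred on its group, r was 0.89 and -0.68. All these Dtx3l values are of 1435208_at. The other Dtx3l probe set, 1439825_at, was lowest in smoke array 2, at a log2 level of 6.09, where Parp9 was lowest as well. Its next lowest were smoke arrays 5 and 6, at 8.41 and 8.30, where Parp9 was highest. It was highest in smoke array 1, at 9.29. No r was computed for 1439825_at, so the negative sign is given for 1435208_at alone. For Parp12 the r within smoke arrays was 0.73, and for Parp1 it was -0.80 (exact permutation p = 0.0958 and 0.0625, both adjusted to 0.128). The remaining 4 ran from -0.26 for Parp2 through 0.48 for Parp3 and 0.74 for Parp4 to 0.78 for Parp8 (adjusted p of 0.128 to 0.599, exact permutation). Some of these turned on the scaling and the arrays. With values as deposited r was 0.0045 for Parp8 and 0.76 for Parp3. Parp8 was at 0.25 over the 10 centred arrays, and without smoke arrays 2 and 5 Parp3 was at -0.29. The negative r of Parp1 is that of 1435368_a_at, which was lowest in smoke arrays 5 and 6, the highest for Parp9. In those arrays the Parp1 probe set 1422502_at was instead at its highest, with log2 levels of 9.95 and 9.78. So was 1422503_s_at, at 10.06 and 10.01. The Parp1 value therefore stands for 1435368_a_at alone. The same 6 arrays differ in the actin ratio and in Xist, and the part of either was not tested.

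Genes with the pattern most like that of Parp9 over all 10 arrays were Rnf213, a giant ubiquitin ligase, Ifit3, Trim34a, the immunity-related GTPase Iigp1 and Usp18, with Pearson's r of 0.989, 0.987, 0.984, 0.984 and 0.983. This r takes in the smoke against control contrast on which Parp9 was picked, so genes that fell far after smoke rank high by construction. Log2 differences of these genes ran from -4.37 for Ifit3 to -1.58 for Trim34a. On values centred within each group r was lower, at 0.74, 0.72, 0.54, 0.57 and 0.49. Genes most like Parp1 were Nt5c2, Mrpl41, Wbp4, Ptgir and Bzw1, with r of 0.986, 0.985, 0.985, 0.982 and 0.981, and on centred values r was 0.978 to 0.985. The Parp1 probe set behind this is 1435368_a_at, which was highest in smoke arrays 1 and 2.

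The 3 genes Parp14, Dtx3l and Parp9 lie side by side on chromosome 16, with 2 pseudogenes between them and no other tested gene. The 4 nearest tested genes on either side were therefore compared by limma over all genes. Of these 8, 1 was lower, none higher and 7 did not pass. Next to Parp14, Hspbap1 differed by 0.20 ± 0.33 (log2, SE), Slc49a4 by -0.82 ± 0.35, Sema5b by 0.17 ± 0.26 and Pdia5 by 0.23 ± 0.22 (adjusted p of 0.464 to 0.859). Next to Parp9, the nuclear import receptor Kpna1 differed by 0.17 ± 0.20, Fam162a by -0.39 ± 0.26 and Ccdc58 by -0.16 ± 0.33 (adjusted p of 0.632 to 0.894). Slc49a4 was at -1.24 and passed with the arrays numbered 1 to 4 alone (adjusted p = 0.00902).

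The neighbour that fell was Stfa2l1, a cysteine protease inhibitor of the stefin family found in neutrophils and the farthest of the 4 from Parp9. Its intensity was 1768, 2870, 1448 and 1294 in controls and 226 to 1044 after smoke, with a median of 412. The log2 difference was -1.99 ± 0.39 (limma, adjusted p = 0.0469), with 6 of 6 smoke arrays under the lowest control. It passed in 2 of 10 single omissions, and without smoke arrays 1 and 2 the adjusted p was 0.0545. Of the 5 neutrophil markers tested, 2 were lower and 3 did not pass, and the 8 markers on the array summed to 24560 to 35940 in controls and 7559 to 16980 after smoke, with Mpo, Elane and Cxcr2 too dim to test. Of 4 plasmacytoid dendritic cell markers, all tested, 1 was lower, and the median log2 difference of the 4 was 0.08. Their summed level, in which the brightest markers weigh most, was 14920 to 17300 in controls against 8961 to 11900 with smoke. The sum therefore does not speak for the 4 markers alike. The part of either cell type in any result here was not tested.

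**Figure D4:**
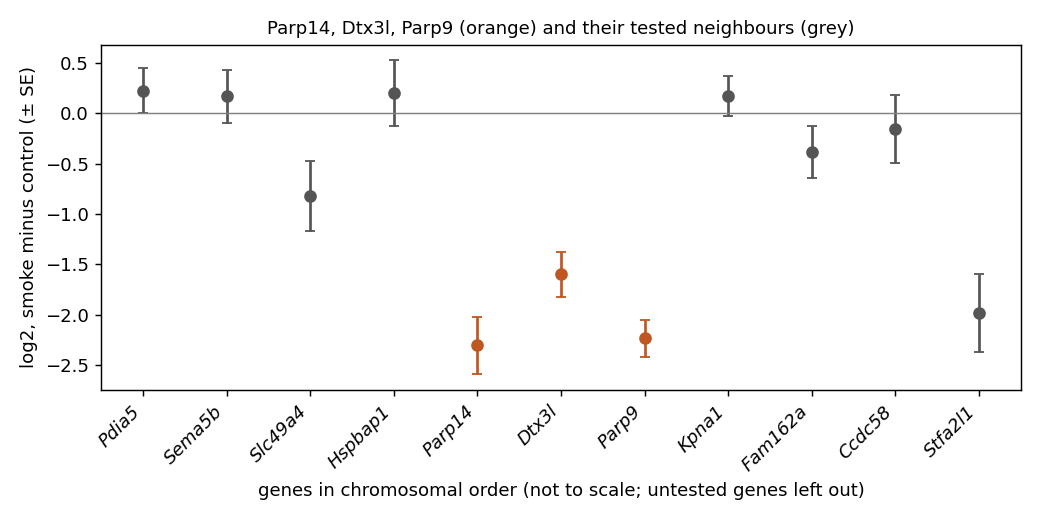
Difference in log2 intensity, smoke minus control, with SE (vertical axis) for Parp14, Dtx3l and Parp9 (orange) and their 8 nearest tested neighbours (grey), in chromosomal order and not to scale (horizontal axis). The 3 members lie at -2.31, -1.60 and -2.24, the 6 genes Pdia5, Sema5b, Hspbap1, Kpna1, Fam162a and Ccdc58 lie between -0.39 and 0.23, Slc49a4 lies at -0.82 and Stfa2l1 at -1.99.

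Other genes of ADP-ribosylation and of NAD metabolism were taken from a list of 46, of which 43 were on the array and 40 were tested. By limma 2 of the 40 were lower, none was higher and 38 did not pass (3 lower and 0 higher at an unadjusted p under 0.05). Over all 13382 genes 94 were lower and 3 higher, and 598 and 769 at the unadjusted threshold. In the list the median log2 difference was 0.03 against 0.06 over all genes. Among the other PARPs, listed together as writers of ADP-ribose, 1 of 6 tested fell. This was Zc3hav1, known as zinc finger antiviral protein, at -1.09 ± 0.16 (adjusted p = 0.00731). It is a catalytically inactive PARP, so it is in that list by family and does not itself write ADP-ribose. Its intensity was 4803, 4833, 3837 and 3984 in controls and 1524 to 2437 after smoke, with a median of 2022, and the groups did not overlap. Its second tested probe set had a log2 difference of -0.39 ± 0.18 (adjusted p = 0.494). The call was lost without control replicate 1 or 2 (adjusted p = 0.0510 and 0.0525) and with median centring (adjusted p = 0.0505).

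The tankyrases Tnks and Tnks2, which modify telomere and Wnt pathway proteins, were at 0.03 ± 0.20 and 0.05 ± 0.14, and Parp6 at 0.10 ± 0.38 (adjusted p of 0.917 to 0.968). Second tested probe sets were at -0.42 ± 0.16 for Tnks2, with 6 of 6 smoke arrays below every control, and at -0.56 ± 0.65 for Tnks (adjusted p = 0.408 and 0.795). Parp11 was at -0.78 ± 0.27 (adjusted p = 0.364), below every control in 5 of 6 smoke arrays, and its second tested probe set at -0.25 ± 0.23 (adjusted p = 0.729). Tiparp, a PARP under control of the aryl hydrocarbon receptor, differed between probe sets: the brightest was at -0.19 ± 0.15 (adjusted p = 0.697), 1452160_at at -1.97 ± 0.73 (adjusted p = 0.397) and 1452161_at fell by 1.67 ± 0.24 (adjusted p = 0.00616). Parp16 was too dim to test, at 89.9 to 98.5 in the controls and 18.6 to 115 in the smoke lungs.

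Nampt, the rate-limiting enzyme that rebuilds NAD from nicotinamide, was the other gene that fell, 1 of 15 tested in NAD supply and use. Its intensity was 2188, 2659, 2769 and 2156 in controls and 594 to 1393 after smoke, with a median of 950. All 6 smoke arrays lay below every control, with a log2 difference of -1.28 ± 0.21 (adjusted p = 0.0164), and the second tested probe set was at -1.70 ± 0.38 (adjusted p = 0.104). It passed in 6 of 10 single omissions, not without any 1 of the 4 controls (adjusted p up to 0.101), and not with median centring (adjusted p = 0.0880). The other NAD genes ran from Nadk2 at -0.67 ± 0.50 to Sirt2 at 0.84 ± 0.56 (adjusted p of 0.530 to 0.993).

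None of the 5 erasers and binders passed, with Parg, the main hydrolase of poly(ADP-ribose), at -0.22 ± 0.18 and Adprhl2, a hydrolase that removes serine-linked ADP-ribose, at 0.29 ± 0.19 (adjusted p = 0.6996 and 0.631). None of the 10 partners in repair and chromatin passed, from Timeless at -0.33 ± 0.32 to Aplf at 0.96 ± 0.44, and Hpf1, the cofactor that directs Parp1 to serine, was at 0.04 ± 0.38 (adjusted p of 0.498 to 0.982). The other deltex ligases, relatives of Dtx3l, did not pass either, with 4 tested and values from 0.02 for Dtx1 and Dtx3 to 0.51 for Dtx2 (adjusted p of 0.607 to 0.993).

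**Figure D5:**
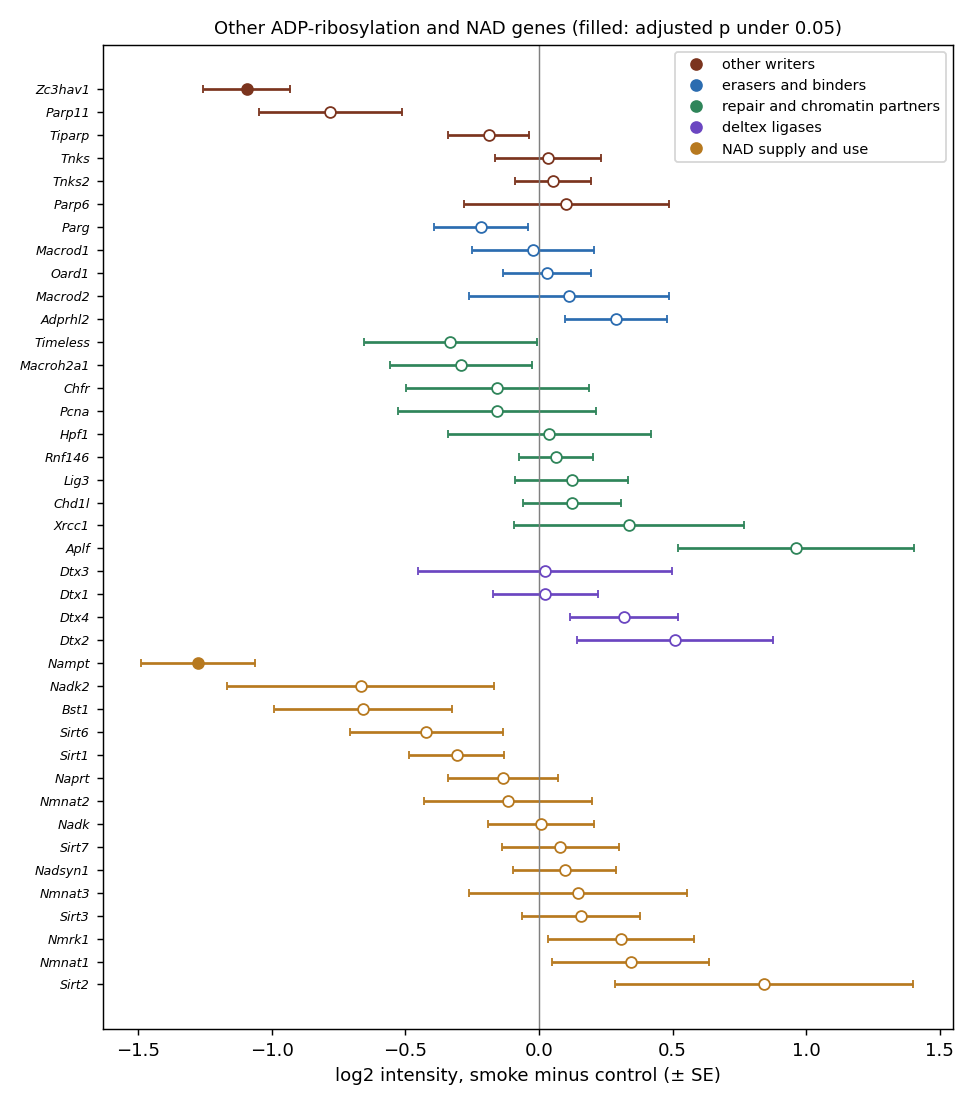
Difference in log2 intensity, smoke minus control, with SE (horizontal axis) for 40 tested genes of ADP-ribosylation and NAD metabolism (vertical axis), coloured by role. Filled points are the 2 genes with an adjusted p under 0.05, Zc3hav1 at -1.09 and Nampt at -1.28, and the other 38 are open.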

How the data were processed

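Per the labels, total RNA was extracted with Trizol and amplified to labelled cRNA. The authors deposited 1 linear intensity per probe set and array. Which program summarised the probes is not given in the sources used here. Arrays had been scaled: leaving out 2% at either end, their means lay between 499.5 and 499.9. A single 0 was replaced by the lowest value above 0, values were put on the log2 scale, arrays were quantile normalized, and a floor was set at the 10th percentile (an intensity of 15.8). Without 64 controls, the upper 60% of probe sets by mean, 27022, were tested with limma 3.58.1 in R 4.3.3 (eBayes with trend, two-sided, Benjamini-Hochberg over probe sets, threshold 0.05). Each gene was represented by the brightest tested probe set that carries its symbol alone, for 13382 genes. The fit was tested on simulated arrays. Symbols came from the platform annotation, and gene order and promoters from RefSeq (GRCm38.p6). The array files name no build. The members, lists and named genes were chosen with earlier results of these data known. All members, listed genes that passed, other writers and neighbours were named, with the 5 genes most like Parp9 and Parp1 in r. Of 9 planned relations with Parp9, 8 had values. No protein sequences were used. Plots used matplotlib 3.10.9 in Python 3.11.15. The number of arrays limits the precision.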

Additional observations from a re-analysis of the deposited data

Results flagged for a closer look

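Over 74 groups of arrays, 10 values stood far from the rest of their group in log2 level, where chance gives about 1 in 20 groups. Among the members, Parp2 in smoke array 1 was high at 10.18, with the next at 9.55, and the dimmer Dtx3l probe set in smoke array 2 was low at 6.09, with the next at 8.30. Among the other writers, Parp11 was low in control 4 at 10.27 and high in smoke array 2 at 10.93. The brightest Tiparp probe set was high in smoke array 4 at 12.06, and 1452161_at was low in control 1 at 9.66 and in smoke array 2 at 7.58. A dimmer Tnks probe set was low in control 4 at 6.00, a dimmer Tnks2 probe set was low in smoke array 1 at 10.16, and the second Zc3hav1 probe set was high in control 2 at 9.59. Of the 10, 6 were in the smoke group and 4 in controls.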

How the results depend on the processing

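Changed genes in all numbered 97, and 59 to 108 over single omissions, 183 with array weights and 371 with the actin ratio in the model. They numbered 479 by the rule of the design text, with a fold limit of 1.5 and 16 of 24 pairs of arrays needed. With the arrays numbered 1 to 4 limma gave 754, and 790 with the number as a replicate block. The share of lower genes was 43.8% and 42.9% there, 59.3% with the actin ratio and 77.6% with weights, against 96.9%. Deviations of same-numbered arrays had correlations of -0.07, 0.17, -0.06 and -0.05, and no array matched its own number best, so the numbers were not taken as pairs.

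The other ADP-ribosylation and NAD genes that changed, 2 in the report, numbered 0 to 2 over single omissions and 0 with median centring. They numbered 3 without _x_at and _s_at probe sets, without smoke arrays 1 and 2, with array weights and by the rule of the design text. With the arrays numbered 1 to 4 they were also 3, with or without the replicate block. Neighbours that changed, 1 in the report, numbered 0 or 1 over single omissions, 0 without smoke arrays 1 and 2, without the filter or without a variance trend, and 2 with the arrays numbered 1 to 4, with or without the replicate block. The median over members was -0.79 without _x_at and _s_at probe sets, which leaves out Parp3. With values as deposited 1 relation with Parp9 passed, that of Dtx3l by its brightest probe set. The longer core was in 0 windows, against 1 with the shorter. The cause of the other changes was not tested. Dim probe sets limit Parp4, Parp8 and the second Parp14 probe set.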
